A study of Homo sapiens with 8 samples.

Results

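The genes described here encode the machinery that makes ribosomes: RNA polymerase I with its initiation factors, the small nucleolar RNA-protein particles (snoRNPs), and the assembly factors of the small and large ribosomal subunits. They were chosen by symbol alone (POLR1A to POLR1H, the numbered UTP, RRP, NOP and NOL genes, NOC2L and its numbered relatives, and 17 further named genes such as NCL, NPM1 and FBL), which gave 65 of the 13036 genes listed in the deposited table. POLR1H was not analysed here. The 65 genes fell into 7 RNA polymerase I subunits, 2 initiation factors, 3 box C/D and 2 box H/ACA snoRNP proteins, 23 small subunit processome and 18S factors, 5 late 40S factors, 13 large subunit factors, 3 PeBoW proteins, 3 abundant nucleolar proteins, and 4 genes that the symbol patterns catch without a role in the pathway that is certain (NOL3, NOL4L, NOP14-AS1 and RRP7BP).

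Ribosomes are built in the nucleolus. RNA polymerase I, brought to the ribosomal DNA by UBTF and RRN3, makes one long precursor RNA, snoRNPs modify it, and the small subunit processome and the large subunit assembly factors cut, fold and package it into the precursors of the ribosomal subunits, which are finished in the cytoplasm. The process takes up a large part of the energy and nucleotides of a growing cell, and MYC is known as an activator of many of its genes.

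RNA was sequenced from the LN229-TAZ(4SA) line, human glioblastoma cells whose name refers to TAZ, a co-activator in Hippo signalling. There were 4 groups of 2 libraries each: cells without glucose and with AF at 1 µM for 1 h, cells in regular culture without AF at 1 h, cells without glucose and with AF at 1 µM for 7 h, and cells in regular culture without AF at 7 h. The first and the third group are called treated below. AF stands in the labels as an abbreviation only, every group is the same modified line, and AF and the loss of glucose came together, so the part of each cannot be told apart. The labels do not state whether the 2 libraries of a group are separate cultures. The p-values thus cover the spread among these libraries alone, and that spread may be technical.

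Reads in listed genes numbered 27731776 to 45811965 per library, and 1 read was worth 0.0209 to 0.0430 CPM (counts scaled for depth, on the authors' library sizes). All 8 line and mesenchymal markers looked for (VIM, CD44, NES, EGFR, WWTR1, GFAP, SOX2 and OLIG2) were in the table, as were 2 of 6 markers of other cell types (RBFOX3 and MBP); PTPRC, PECAM1, EPCAM and HBB were not analysed here. RBFOX3, a marker of neurons, was at 25.2 and 28.7 CPM in treated cells and at 0.438 and 0.574 CPM in regular culture at 7 h. MBP, a marker of oligodendrocytes, was at 1.248 and 2.04 CPM in treated cells and at 0.355 and 0.552 CPM in regular culture at 7 h. The part of either in the results below was not tested. Libraries of a pair are called A and B without order. They differed beyond counting error: chi-square over genes was 2.79 to 3.62 times its degrees of freedom. In bulk RNA, fewer cells of a type and less RNA per cell cannot be told apart. The kit does not mark strand, so where genes overlap or are antisense to each other their reads are mixed. Of the 65 genes, 18 share exon bases with another listed gene, 5 of them over more than 20% of their exon bases.

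As a share of all reads in listed genes, the 65 genes took 0.525% and 0.538% in treated cells at 1 h, against 0.528% and 0.546% in regular culture at 1 h. They took 0.510% and 0.511% in treated cells at 7 h, against 0.730% and 0.733% in regular culture at 7 h. The share was thus highest in regular culture at 7 h, and the other 6 libraries lay close together. Taking a share amounts to scaling each library to its total of the listed genes. The deposited library sizes were 0.838 and 0.846 times these reads in treated cells at 7 h and 1.04 to 1.09 times elsewhere. The closeness of the 6 libraries thus holds for the share and need not hold on the deposited scale. NCL and NPM1, the most abundant of the genes, weigh most in the shares.

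**Figure D1:**
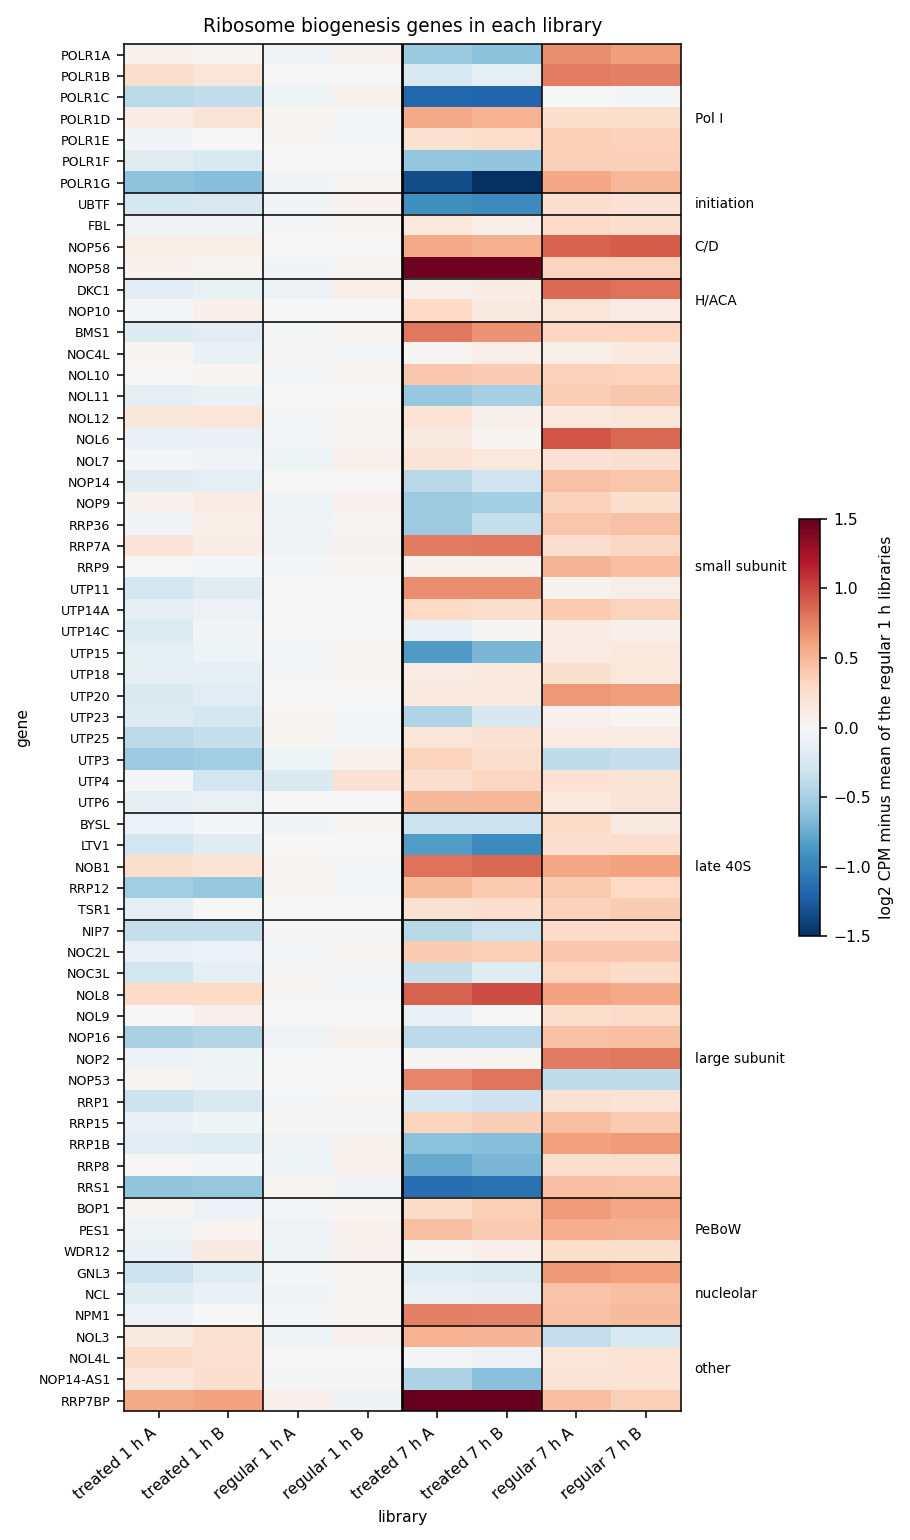
Level of each gene in each of the 8 libraries as the difference in log2 CPM from that gene's mean in the 2 libraries of regular culture at 1 h, with genes grouped by role down the page and libraries across it, treated beside regular culture at each time. Colours end at 1.5 log2 units and RRN3 is left out; most rows are above 0 in the libraries of regular culture at 7 h, and NOP58, NOP53 and UTP3 are highest in the treated libraries at 7 h.

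Treated cells and regular culture differed more at 7 h than at 1 h. At 7 h, 13 of the 65 genes were higher and 38 lower in treated cells (adjusted p under 0.05, limma on all 13028 tested genes), with a median log2 fold change of -0.26, against -0.01 over all tested genes. Of all tested genes 81.6% passed at 7 h, 40.5% higher and 41.1% lower, so the number of the 65 genes that passed is near the background. At 1 h, 9 were higher and 26 lower with a median of -0.08, against 0.01 over all tested genes, of which 38.4% passed, 17.7% higher and 20.7% lower. The treatment effect at 7 h minus that at 1 h was higher for 12 genes and lower for 34 with a median of -0.23, where 73.7% of all tested genes passed, 36.7% higher and 37.0% lower.

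The fold changes depend on the scaling of the libraries. With the deposited scaling replaced by the total of the listed genes, the median of all tested genes at 7 h moved to -0.32, and the 65 genes split into 8 higher and 51 lower at 7 h, where 24.1% of all tested genes were higher and 58.2% lower. At 1 h they split into 14 higher and 17 lower, where 30.2% of all tested genes were higher and 14.0% lower. For the difference between the times they split into 7 higher and 51 lower, where 19.3% of all tested genes were higher and 58.2% lower. Their median at 7 h was then -0.57, so it lay below that of all tested genes with either scaling.

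Regular culture itself changed between the times. In regular culture, 54 of the 65 genes were higher and 3 lower at 7 h than at 1 h (NOP53, UTP3 and NOL3), and 8 did not pass, with a median log2 fold change of 0.33, against 0.00 over all tested genes. That is 83.1% of the 65 genes higher, where 61.5% of all tested genes passed, 30.7% higher and 30.8% lower. All 57 calls remained under each of the 3 other scalings tried. When a change above 1.5-fold was required, 5 genes were higher, and the share of all tested genes under that test was not counted. In treated cells 33 genes were higher and 18 lower at 7 h than at 1 h, where 77.6% of all tested genes passed, 36.9% higher and 40.7% lower; scaled to the total of the listed genes, this became 15 higher and 39 lower, where 17.3% of all tested genes were higher and 65.7% lower. On the deposited scale, 54 genes rose in regular culture. Of these, 28 also rose in treated cells, 16 fell there and 10 passed in neither direction. This split depends on the scaling. With the total, 8 of the 51 calls between the times in treated cells turned the other way, and 10 were lost. How all tested genes split in this way was not counted. The libraries of regular culture at 7 h enter both the comparison with treated cells at 7 h and the comparison with regular culture at 1 h, so a gene that is high in them moves both values.

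**Figure D2:**
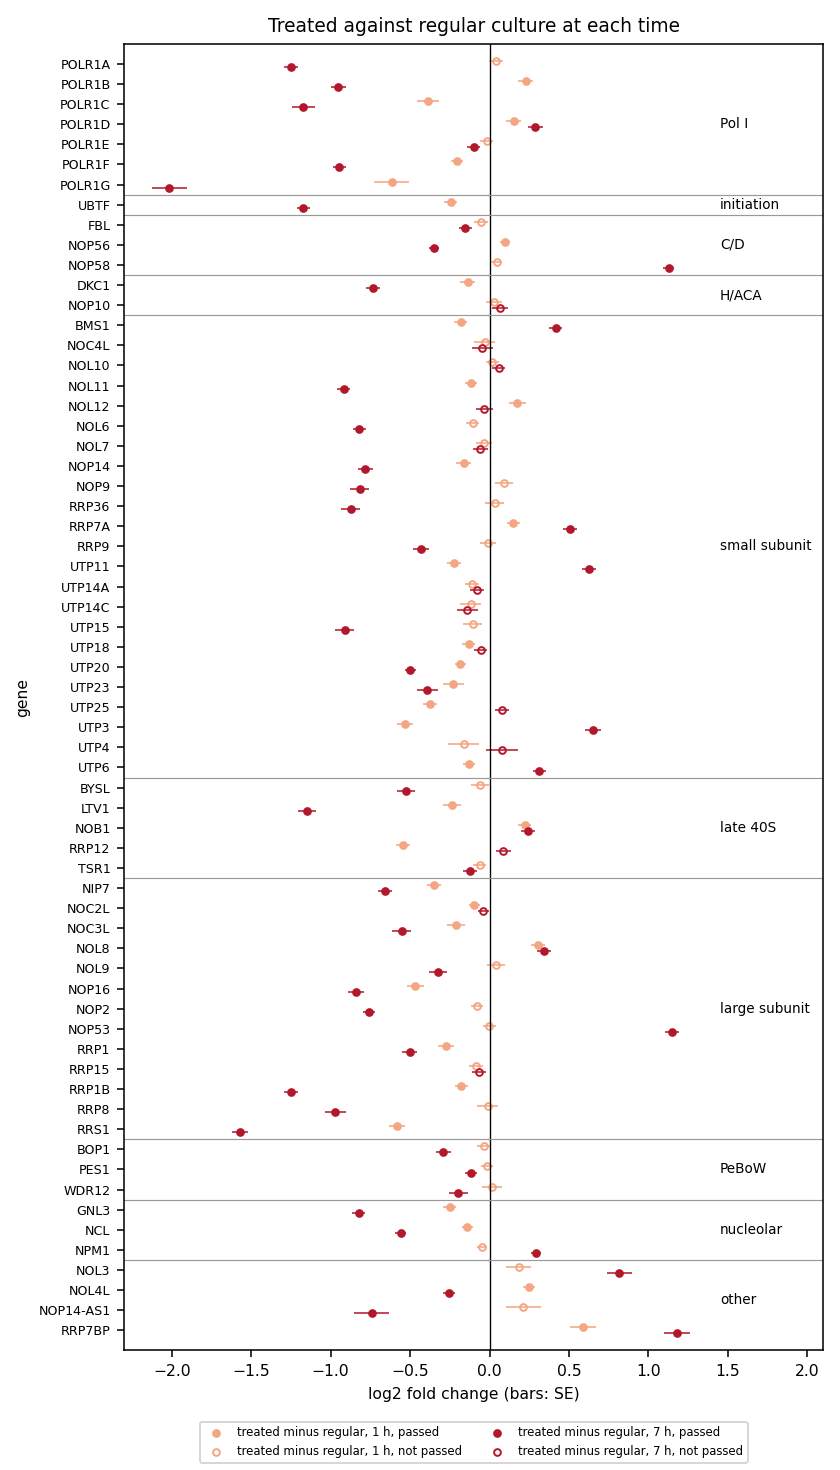
Log2 fold change of treated cells against regular culture at 7 h and at 1 h for each gene except RRN3, grouped by role, with bars of 1 standard error from limma and filled points for an adjusted p under 0.05. The RNA polymerase I subunits reach -2.02 (POLR1G) at 7 h, and the fold changes at 1 h lie between -0.62 and 0.59.

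Of the 7 RNA polymerase I subunits, 6 were lower and 1 higher in treated cells at 7 h, with a median log2 fold change of -0.95. At 1 h, 2 were higher and 3 lower, and 6 of the 7 were higher at 7 h between the times in regular culture. The own subunits of the other nuclear polymerases are set beside them as a description: of 11 RNA polymerase III subunits 2 were higher and 7 lower in treated cells at 7 h, with a median of -0.19, and of 7 RNA polymerase II subunits 3 were higher and 3 lower, with a median of 0.08. All tested genes passed in 81.6% at 7 h, 38.4% at 1 h and 61.5% between the times in regular culture. The shares higher and lower were 40.5% and 41.1% at 7 h, 17.7% and 20.7% at 1 h, and 30.7% and 30.8% in regular culture. These shares are the background for the counts of each class and list, here and below.

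POLR1A encodes the largest subunit, which holds the active site. Its level was 87.7 and 86.5 CPM in treated cells at 1 h, 81.8 and 87.4 CPM in regular culture at 1 h, 57.4 and 55.1 CPM in treated cells at 7 h, and 137 and 130.1 CPM in regular culture at 7 h. The groups overlapped at 1 h and lay far apart at 7 h, where both treated libraries were the lowest of the 8. The log2 fold change was -1.25 (SE 0.04; limma adjusted p = 9.33e-16) at 7 h and 0.04 at 1 h, which did not pass with the deposited scaling and passed as higher with the total (0.11) and with quantile normalization (0.11). POLR1B, the second largest subunit, was at 48.1 and 45.3 CPM in treated cells and at 39.6 and 40.2 CPM in regular culture at 1 h. At 7 h it was at 33.9 and 36.3 CPM in treated cells and at 68.2 and 67.6 CPM in regular culture. The treated libraries were thus above those of regular culture at 1 h and below them at 7 h, without overlap at either time. The log2 fold change was 0.23 (SE 0.05; limma adjusted p = 0.000977) at 1 h and -0.95 (SE 0.05; limma adjusted p = 5.52e-13) at 7 h, and the difference between the times of -1.18 passed.

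POLR1G had the lowest CPM of the subunits and the largest fall. It was at 5.89 and 5.75 CPM in treated cells and at 8.72 and 9.18 CPM in regular culture at 1 h. At 7 h it was at 3.53 and 2.87 CPM in treated cells and at 13.4 and 12.7 CPM in regular culture. The groups did not overlap at either time, and the log2 fold changes were -0.62 (SE 0.11; limma adjusted p = 0.000169) at 1 h and -2.02 (SE 0.11; limma adjusted p = 1.61e-12) at 7 h. Of its exon bases 43.5% are shared with ERCC1, a DNA repair gene on the opposite strand, whose own log2 fold change at 7 h was -0.32, so the reads of the pair cannot be told apart. POLR1F, a subunit of the stalk, was at 65.0 and 62.5 CPM in treated cells against 73.7 and 73.1 CPM in regular culture at 1 h. POLR1F at 7 h stood at 49.0 and 48.5 CPM in treated cells against 94.1 and 93.8 CPM in regular culture. Its log2 fold changes of -0.20 (SE 0.04) at 1 h and -0.94 (SE 0.04) at 7 h both passed.

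POLR1C and POLR1D form a pair that RNA polymerase I shares with RNA polymerase III, and they differed in direction. POLR1C was at 15.9 and 16.3 CPM in treated cells against 20.1 and 22.1 CPM in regular culture at 1 h. POLR1C at 7 h stood at 9.25 and 9.22 CPM in treated cells against 20.96 and 20.8 CPM in regular culture. It was lower without overlap at both times, with log2 fold changes of -0.39 (SE 0.07) and -1.17 (SE 0.07; limma adjusted p = 6.58e-12), and was the one subunit that did not pass between the times in regular culture (-0.01). POLR1D was at 45.5 and 48.5 CPM in treated cells against 43.1 and 41.4 CPM in regular culture at 1 h. POLR1D at 7 h stood at 62.7 and 60.6 CPM in treated cells against 50.3 and 50.6 CPM in regular culture. It was higher at both times on the deposited scale (0.15 and 0.29), but its call at 1 h was lost without the B library of treated cells (0.11) or of regular culture (0.13), and its log2 fold change at 7 h was -0.03 when scaled to the total. POLR1E, which pairs with POLR1G, was at 67.4 and 69.1 CPM in treated cells and at 73.6 and 72.7 CPM in regular culture at 7 h. Its log2 fold change of -0.10 (SE 0.04; limma adjusted p = 0.0299) lost the call under quantile normalization (-0.08), with the median of all genes as centre (-0.02), and without 1 of 3 libraries (treated A, -0.08; regular A, -0.09; regular B, -0.11).

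UBTF, which bends and opens the ribosomal DNA for the polymerase, was lower at both times. It was at 114 and 116 CPM in treated cells against 131 and 142 CPM in regular culture at 1 h. UBTF at 7 h stood at 71.8 and 70.6 CPM in treated cells against 163 and 159 CPM in regular culture. The groups did not overlap at either time, and the log2 fold changes were -0.25 (SE 0.04; limma adjusted p = 6.74e-05) at 1 h and -1.17 (SE 0.04; limma adjusted p = 9.97e-16) at 7 h. RRN3, the factor that joins the polymerase to the promoter, has near-identical copies in the genome, and its values are uncertain: it had 20 to 161 reads per library, with 3.67 and 0.981 CPM in treated cells against 0.729 and 0.840 CPM in regular culture at 1 h, and 3.44 and 0.862 CPM in treated cells against 2.34 and 0.441 CPM in regular culture at 7 h. One library of a pair was several times above the other in 3 of the 4 groups, and neither fold change passed (1.23 with SE 0.62 at 1 h, 0.72 with SE 0.62 at 7 h). RRN3 was called higher at 1 h when the 4 libraries of that time were fitted alone (1.23), and its value at 1 h was 2.16 without treated B. At 7 h its value was 1.69 without treated B and 1.86 without regular A, but -0.25 without treated A and -0.42 without regular B.

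**Figure D3:**
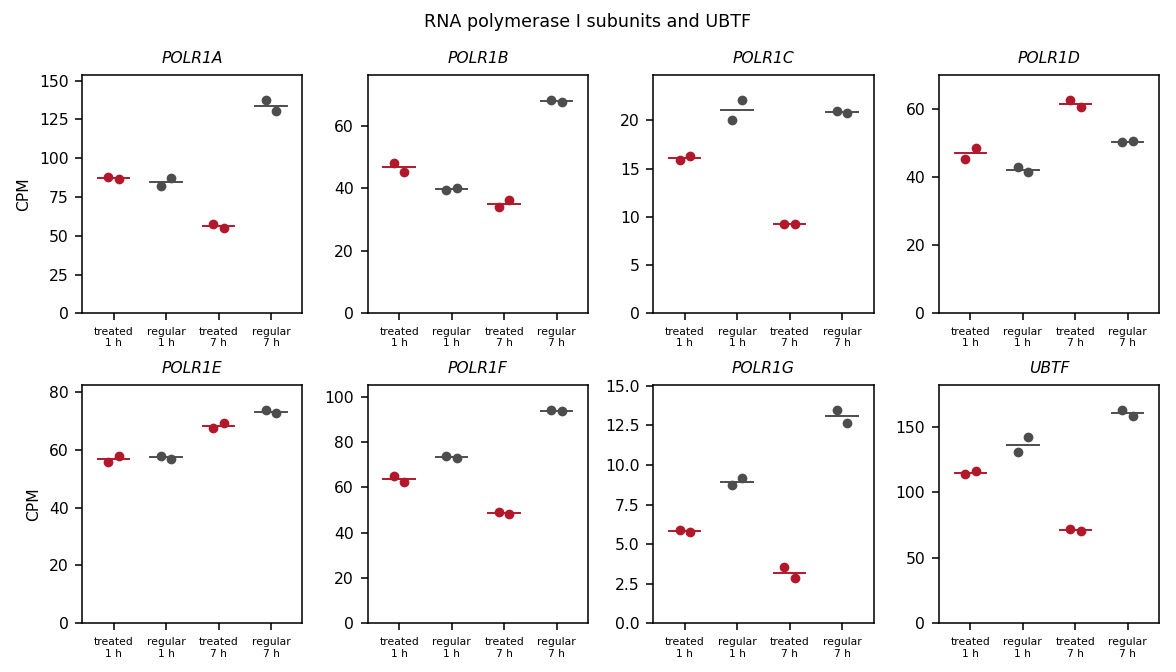
Level in CPM, on linear axes from 0, of the RNA polymerase I subunits and UBTF in each library, with treated cells left of regular culture at 1 h and at 7 h and lines at the group means. POLR1A, POLR1B, POLR1C, POLR1F, POLR1G and UBTF are lowest in the treated libraries at 7 h. On this scale POLR1D is highest in the treated libraries at 7 h, but its log2 fold change at 7 h was -0.03 when scaled to the total.

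Other factors that work with RNA polymerase I were described as a list of 15: 4 were higher and 7 lower in treated cells at 7 h, with a median log2 fold change of -0.12, and 1 was higher and 6 lower at 1 h. TOP1, the topoisomerase that relieves the supercoils of transcription in the nucleolus and elsewhere, was at 191.9 and 193 CPM in treated cells against 282 and 276 CPM in regular culture at 1 h. TOP1 at 7 h stood at 543 and 541 CPM in treated cells against 175 and 184 CPM in regular culture. It was below regular culture at 1 h and above it at 7 h, with log2 fold changes of -0.53 and 1.60 (SE 0.03 each), both of which passed. TCOF1 and NOLC1, large nucleolar phosphoproteins that serve the polymerase, were lower at 7 h, with log2 fold changes of -0.63 (SE 0.04) and -0.66 (SE 0.03).

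The core proteins of the box C/D snoRNPs, which guide 2′-O-methylation of the precursor RNA, differed in direction. NOP58 was at 127 and 127 CPM in treated cells against 119 and 127 CPM in regular culture at 1 h. NOP58 at 7 h stood at 339.8 and 339 CPM in treated cells against 155 and 156 CPM in regular culture. It was at 0.05 and did not pass at 1 h, where the total (0.12) and quantile normalization (0.14) called it higher, and it was 2.19-fold above regular culture at 7 h (log2 fold change 1.13, SE 0.03; limma adjusted p = 1.81e-16). Its partner NOP56 was at 216 and 216 CPM in treated cells against 202 and 201 CPM in regular culture at 1 h. NOP56 at 7 h stood at 299 and 293 CPM in treated cells against 373 and 380.2 CPM in regular culture. It was lower at 7 h (-0.35, SE 0.03; limma adjusted p = 2.18e-09) with its treated libraries at 7 h above all libraries of 1 h; its rise at 1 h (0.10, SE 0.03) lost the call without treated A (0.10), treated B (0.10) or regular B (0.09). FBL, the methyltransferase fibrillarin, was at 70.3 and 66.4 CPM in treated cells and at 76.9 and 75.1 CPM in regular culture at 7 h. Its log2 fold change of -0.15 (SE 0.04; limma adjusted p = 0.00257) lost the call with the median of all genes as centre (-0.07).

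Of the box H/ACA proteins, which guide pseudouridine formation, DKC1 (dyskerin, the pseudouridine synthase) was at 88.7 and 91.9 CPM in treated cells against 93.7 and 105 CPM in regular culture at 1 h. DKC1 at 7 h stood at 105 and 107 CPM in treated cells against 179 and 175 CPM in regular culture. It was lower at 7 h, at 60.1% of the level in regular culture (log2 fold change -0.73, SE 0.05; limma adjusted p = 1.06e-11). Its fall at 1 h of -0.14 lost the call without treated A (-0.11) or regular B (-0.05), with the total (-0.07) and with quantile normalization (-0.07). NOP10, the smallest core protein, was at 76.0 and 67.8 CPM in treated cells and at 69.9 and 67.1 CPM in regular culture at 7 h, which overlapped, and did not pass at either time. With the median of all genes as centre, or without treated B, it was called higher at 7 h (0.15 in both), and scaled to the total it was called lower (-0.25). GAR1, a further core protein that the symbol patterns do not catch, was lower at both times, with log2 fold changes of -0.49 (SE 0.08) at 1 h and -0.50 (SE 0.08) at 7 h. It stands in a list of 11 further snoRNP proteins and assembly factors, of which 3 were higher and 4 lower at 7 h, among them RUVBL2, an ATPase that assembles box C/D particles, at 1.03 (SE 0.04).

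**Figure D4:**
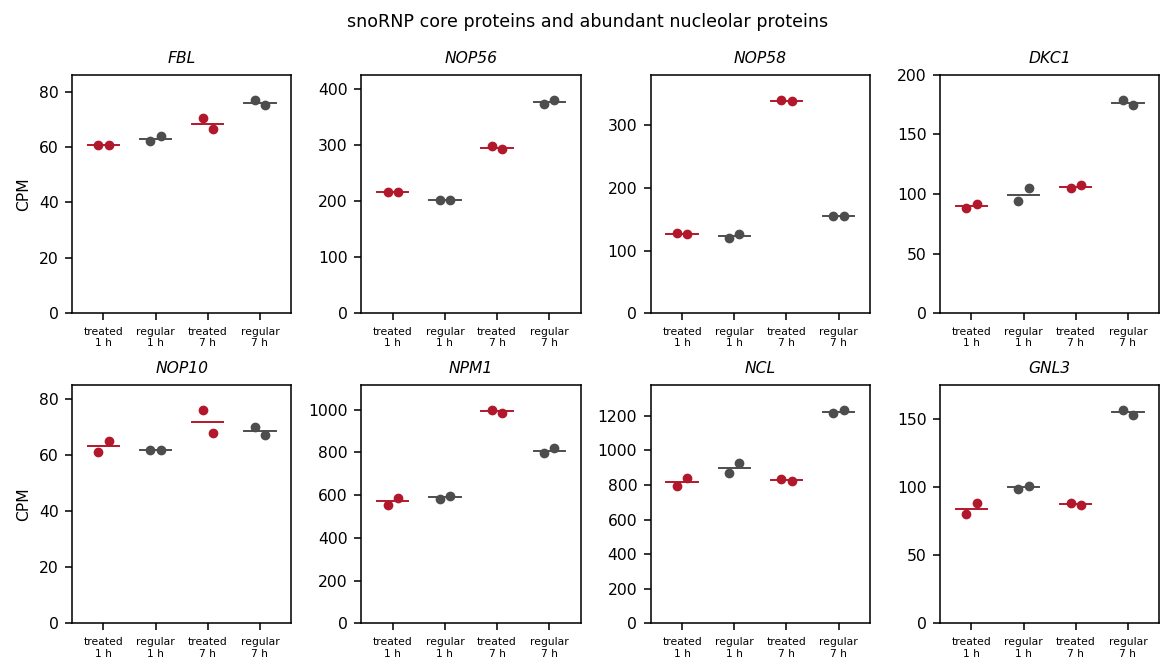
Level in CPM, on linear axes from 0, of the snoRNP proteins FBL, NOP56, NOP58, DKC1 and NOP10 and of NPM1, NCL and GNL3 in each library, with treated cells left of regular culture at 1 h and at 7 h and lines at the group means. On this scale NOP58 and NPM1 are highest in the treated libraries at 7 h (NPM1 loses this order with other scalings), while NOP56, DKC1, NCL and GNL3 are highest in regular culture at 7 h.

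Of the 23 small subunit processome and 18S factors, 5 were higher and 9 lower in treated cells at 7 h, with a median log2 fold change of -0.06 and a range of -0.92 to 0.65. That is 21.7% higher and 39.1% lower, against 40.5% and 41.1% of all tested genes. The share that passed, 60.9%, lay below the 81.6% of all tested genes. The 5 higher genes were UTP3, UTP11, RRP7A, BMS1 and UTP6. Lower were NOL11, UTP15, RRP36, NOP9, NOL6, NOP14, UTP20, RRP9 and UTP23, and NOL7, NOL10, NOL12, NOC4L, UTP4, UTP14A, UTP14C, UTP18 and UTP25 did not pass. At 1 h, 2 were higher (RRP7A and NOL12) and 10 lower, with a range of -0.53 to 0.17. Between the times in regular culture, 17 were higher at 7 h and 1 lower. UTP14A and its retrocopy UTP14C, and RRP7A and its copy RRP7BP, are close copies in sequence, UTP14C shares 74.2% of its exon bases with ALG11, and counting could split their reads, so their values are uncertain.

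UTP3, whose yeast relative joins the processome and is also linked to gene silencing, had the largest rise of the class at 7 h and the largest fall at 1 h. It was at 35.3 and 35.7 CPM in treated cells against 49.3 and 53.5 CPM in regular culture at 1 h. UTP3 at 7 h stood at 64.8 and 61.0 CPM in treated cells against 39.5 and 40.4 CPM in regular culture. The order of the groups was thus turned round between the times, with log2 fold changes of -0.53 (SE 0.05; limma adjusted p = 4.76e-08) and 0.65 (SE 0.05; limma adjusted p = 3.15e-10), and the difference of 1.19 (SE 0.07; limma adjusted p = 1.22e-11) was the largest positive one of the 65 genes on this scale. UTP11 showed the same order, at 44.1 and 46.7 CPM in treated cells against 52.9 and 53.1 CPM in regular culture at 1 h. UTP11 at 7 h stood at 85.8 and 85.9 CPM in treated cells against 55.0 and 56.3 CPM in regular culture. Its log2 fold changes were -0.22 (SE 0.04) and 0.62 (SE 0.04), and both passed. BMS1 and UTP6 were likewise lower at 1 h and higher at 7 h. UTP6 lost its call with the total at both times, and with quantile normalization at 1 h. NOL11, a processome protein needed for pre-18S cutting, was at 86.4 and 88.6 CPM in treated cells against 94.7 and 94.9 CPM in regular culture at 1 h. NOL11 at 7 h stood at 63.9 and 67.1 CPM in treated cells against 122 and 125 CPM in regular culture. It had the largest fall of the class at 7 h (-0.92, SE 0.04; limma adjusted p = 2.32e-14). Its fall at 1 h of -0.12 lost the call without treated A (-0.10), regular A (-0.12) or regular B (-0.11), with the total (-0.05) and with quantile normalization (-0.05).

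Among the 5 late 40S factors, 1 was higher and 3 lower in treated cells at 7 h, and all 5 were higher at 7 h between the times in regular culture. LTV1, which leaves the nearly finished small subunit in the cytoplasm, was at 28.99 and 31.2 CPM in treated cells against 35.3 and 35.6 CPM in regular culture at 1 h. LTV1 at 7 h stood at 19.9 and 18.3 CPM in treated cells against 42.1 and 42.5 CPM in regular culture. It fell to 45.1% of the level in regular culture at 7 h (log2 fold change -1.15, SE 0.06; limma adjusted p = 3.66e-13); at 1 h it was at -0.24, and at -0.18 without the call when treated A was left out. NOB1, the nuclease that makes the 3′ end of 18S RNA, was at 53.2 and 52.2 CPM in treated cells against 45.99 and 44.4 CPM in regular culture at 1 h. NOB1 at 7 h stood at 79.2 and 81.9 CPM in treated cells against 67.6 and 68.6 CPM in regular culture. It was higher without overlap at both times on the deposited scale (0.22 and 0.24, SE 0.04 each), and at 7 h its log2 fold change was -0.07 when scaled to the total. RRP12, which takes part in the export of pre-ribosomes, was at 48.8 and 47.4 CPM in treated cells against 71.6 and 68.5 CPM in regular culture at 1 h. RRP12 at 7 h stood at 97.5 and 91.9 CPM in treated cells against 91.8 and 86.5 CPM in regular culture. It was lower at 1 h (-0.54, SE 0.04; limma adjusted p = 6.65e-09) and did not pass at 7 h (0.09). At 7 h it was called lower with the total (-0.23) and higher with the median of all genes as centre (0.17), without treated B (0.13) or without regular A (0.13), while the difference between the times (0.63, SE 0.06) passed. BYSL and TSR1 were lower at 7 h (-0.52, SE 0.06, and -0.12, SE 0.04); TSR1 lost the call with the median of all genes as centre and shares 20.7% of its exon bases with SRR.

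Of the 13 large subunit factors, 2 were higher and 9 lower in treated cells at 7 h, with a median log2 fold change of -0.55, and 1 was higher and 7 lower at 1 h. At 7 h that is 15.4% higher and 69.2% lower, against 40.5% and 41.1% of all tested genes. The share that passed at 7 h, 84.6%, was near the 81.6% of all tested genes. Between the times in regular culture, 12 were higher at 7 h and 1 lower. RRS1, which with its partner brings the 5S particle into the large subunit in yeast, was at 28.6 and 28.98 CPM in treated cells against 44.3 and 42.1 CPM in regular culture at 1 h. RRS1 at 7 h stood at 19.5 and 19.8 CPM in treated cells against 58.9 and 58.3 CPM in regular culture. The groups lay apart at both times, with log2 fold changes of -0.58 (SE 0.05; limma adjusted p = 1.22e-08) and -1.57 (SE 0.05; limma adjusted p = 2.78e-16), so that treated cells held 33.6% of the level in regular culture at 7 h. RRP1B, a nucleolar protein that also binds a protein phosphatase, was at 68.5 and 67.8 CPM in treated cells against 74.4 and 79.9 CPM in regular culture at 1 h. RRP1B at 7 h stood at 50.5 and 49.7 CPM in treated cells against 118 and 120.2 CPM in regular culture, and its log2 fold changes of -0.18 (SE 0.04) at 1 h and -1.25 (SE 0.04) at 7 h both passed. The paralogue RRP1 was also lower at both times, with smaller log2 fold changes of -0.27 (SE 0.05) and -0.50 (SE 0.05). NOP16 was lower at both times as well (-0.47 and -0.84, SE 0.05 each); 12.02% of its exon bases are shared with ARL10. RRP8, NOP2, NIP7, NOC3L and NOL9 were also lower at 7 h (-0.97 to -0.32), NOC2L and RRP15 did not pass, and NIP7 shares 20.2% of its exon bases with COG8 (-1.36 at 7 h).

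NOP53, which guides the exosome to the 5.8S precursor, went the other way from most of its class. It was at 67.5 and 64.2 CPM in treated cells against 66.3 and 65.5 CPM in regular culture at 1 h. NOP53 at 7 h stood at 109 and 115 CPM in treated cells against 50.5 and 50.6 CPM in regular culture. The groups overlapped at 1 h and were 2.22-fold apart at 7 h (log2 fold change 1.15, SE 0.04; limma adjusted p = 2.25e-15). Within regular culture it was lower at 7 h than at the earlier time (-0.38, SE 0.04). NOL8 was at 55.6 and 55.6 CPM in treated cells against 45.6 and 44.4 CPM in regular culture at 1 h. NOL8 at 7 h stood at 83.3 and 88.7 CPM in treated cells against 68.6 and 66.7 CPM in regular culture. It was higher at both times (0.30 and 0.34, SE 0.04 each), and scaled to the total its value at 7 h was 0.03 and did not pass.

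The PeBoW complex (PES1, BOP1 and WDR12), which is needed to process the RNA of the large subunit, had log2 fold changes of -0.29 to -0.12 in treated cells at 7 h. No gene of it passed at 1 h, where all 3 pairs of groups overlapped, and all 3 were lower in treated cells at 7 h. BOP1 was at 78.1 and 82.3 CPM in treated cells and at 100.3 and 95.9 CPM in regular culture at 7 h (log2 fold change -0.29, SE 0.05; limma adjusted p = 9.11e-06). PES1 was at 188 and 181 CPM in treated cells and at 201 and 199 CPM in regular culture at 7 h, and its value of -0.12 (SE 0.04) lost the call without treated B (-0.09), without regular A (-0.11), or with the median of all genes as centre (-0.03). WDR12 was at 44.97 and 46.3 CPM in treated cells and at 52.7 and 51.9 CPM in regular culture at 7 h, and its value of -0.20 (SE 0.06) lost the call with the median of all genes as centre (-0.11).

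NCL, NPM1 and GNL3 encode abundant nucleolar proteins. NCL (nucleolin) was at 792 and 842 CPM in treated cells against 872 and 927 CPM in regular culture at 1 h. NCL at 7 h stood at 835 and 825 CPM in treated cells against 1213 and 1231 CPM in regular culture. On the deposited scale, the treated libraries at 7 h lay between those at 1 h, an order that depends on the scaling. Both libraries of regular culture at 7 h lay above all others, and the log2 fold change at 7 h was -0.56 (SE 0.03; limma adjusted p = 1.05e-11). The fall at 1 h of -0.14 lost the call without treated A (-0.10) or regular B (-0.09) and with the total (-0.07). GNL3 (nucleostemin), a GTPase found in growing and stem-like cells, was at 80.0 and 88.1 CPM in treated cells against 98.8 and 101 CPM in regular culture at 1 h. GNL3 at 7 h stood at 88.3 and 86.6 CPM in treated cells against 156 and 153 CPM in regular culture, and its log2 fold changes of -0.25 (SE 0.04) at 1 h and -0.82 (SE 0.04) at 7 h both passed. NPM1 (nucleophosmin) has processed pseudogenes that can take some of its reads. It was at 555 and 587 CPM in treated cells against 583 and 598 CPM in regular culture at 1 h. NPM1 at 7 h stood at 997 and 987 CPM in treated cells against 798 and 819 CPM in regular culture. On the deposited scale it was higher at 7 h (0.30, SE 0.03; limma adjusted p = 5.22e-08), but it was at -0.02 with the total and was called lower under quantile normalization (-0.09), so no direction can be given for it.

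Of the 4 genes without a certain role in the pathway, 2 were higher and 2 lower in treated cells at 7 h. RRP7BP, a copy of RRP7A that shares 22.9% of its exon bases with SERHL2 on the opposite strand, was at 10.7 and 11.03 CPM in treated cells against 7.598 and 6.86 CPM in regular culture at 1 h. RRP7BP at 7 h stood at 22.3 and 21.2 CPM in treated cells against 9.87 and 9.25 CPM in regular culture. It was higher without overlap at both times (0.59 and 1.18, SE 0.08 each), and the difference between the times of 0.59 was at 0.21 and no longer called with the total. NOL3 was higher at 7 h (0.82, SE 0.08). NOL4L was higher at 1 h (0.25, SE 0.04) and lower at 7 h (-0.26, SE 0.04). NOP14-AS1, which shares 8.41% of its exon bases with NOP14, was at 4.35 and 3.86 CPM in treated cells and at 6.85 and 6.93 CPM in regular culture at 7 h (-0.74, SE 0.11).

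Set beside each other over all 65 genes, 18 were lower at both times (27.7%, against 11.2% of all tested genes) and 5 higher at both (7.69%, against 8.90%). Lower at 7 h without having passed at 1 h were 17 (26.2%, against 23.6%), and higher at 7 h without having passed at 1 h were 4 (6.15%, against 24.6%). A further 4 were lower at 1 h and higher at 7 h (UTP3, UTP11, UTP6 and BMS1; 6.15%, against 7.08%), and 3 were higher at 1 h and lower at 7 h (POLR1B, NOP56 and NOL4L; 4.62%, against 6.26%). The libraries of treated cells and regular culture did not overlap for 46 of the 65 genes (70.8%) at 1 h and for 61 (93.8%) at 7 h, close to the 68.1% and 90.6% of all tested genes. Leaving out treated A at 1 h brought the number lower at 1 h to 17, against 26 with all libraries, and the other 3 libraries of that time gave up to 25. The pairs of calls above are on the deposited scale. Among the 18 genes lower at both times, DKC1, NOL11, NOP14, UTP23, NOC3L and NCL lost the call at 1 h with the total. DKC1, NOL11 and NOP14 also lost it with quantile normalization. With the median of all genes as centre, the 18 kept both calls. How all tested genes pair with these scalings was not counted.

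The 118 other ribosome biogenesis genes, held in 6 lists, are given beside them by their counts. Of them 38 were higher and 61 lower in treated cells at 7 h, with a median log2 fold change of -0.18, 12 were higher and 44 lower at 1 h, with a median of -0.05, and between the times in regular culture 77 were higher at 7 h and 11 lower, with a median of 0.23. At 7 h 83.9% of the 118 passed, near the 81.6% of all tested genes. Higher and lower at 7 h were 32.2% and 51.7% of the 118, against 40.5% and 41.1% of all tested genes. At 1 h 47.5% passed, against 38.4%, and in regular culture 74.6%, against 61.5%. The single lists below have the same background at 7 h. Among 27 other small subunit processome genes, 8 were higher and 16 lower in treated cells at 7 h. IMP3, which holds the U3 snoRNA on the precursor, was at 9.60 and 8.78 CPM in treated cells and at 38.7 and 38.3 CPM in regular culture at 7 h (log2 fold change -2.06, SE 0.06; limma adjusted p = 1.83e-16). DNTTIP2 was at 369 and 363 CPM in treated cells and at 94.4 and 98.4 CPM in regular culture at 7 h (1.93, SE 0.03; limma adjusted p = 4.65e-20). Among 38 other large subunit genes, 14 were higher and 19 lower, with RSL24D1, a placeholder for a ribosomal protein, at 2.07 (SE 0.04) and GNL3L at -0.94 (SE 0.05). Of 13 helicases of ribosome assembly 4 were higher and 8 lower, and of 14 exosome subunits and cofactors 5 were higher and 7 lower.

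The promoters of 56 of the 65 genes were found in RefSeq's table (GRCh38.p14), each with 250 bases before and 50 bases from the start site. CACGTG, the E-box bound by MYC with MAX and by other factors, was in 18 of the 56 (32.1%), against 1054 of 10455 promoters of the listed genes (10.1%) and 2030 of 27305 promoters in the table (7.43%). It was in 11 of the 33 matched genes that were lower at 7 h (33.3%), in 1 of the 11 that were higher (9.09%) and in 6 of the 12 that did not pass (50%). The share was thus highest in the genes that did not pass. In 16 of the 56 (28.6%) the first base of a CACGTG lay between 20 bases before and 40 bases after the start site, a window chosen after the positions were seen, against 2.31% of the promoters of listed genes. TCTCGCGA was in 7 of 56 (12.5%), against 2.39% of the listed genes. GAANNTTC, a pair of heat shock units, was in 2 of 56 (3.57%), against 4.70%, and TGATGNAA, the element of ATF4 and C/EBP factors, was in 0 of 56, against 1.71%. Both strands were searched for each motif; CACGTG and GAANNTTC read the same on both strands, and none of the 4 motifs contains another.

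The stretches below run from 60 bases before the start site to 50 bases from it, 5′ to 3′ along the gene, with CACGTG and TCTCGCGA on either strand in capitals; overlapping matches of the last motif run together in NOP14. They show the E-box near the start site in 9 genes of different steps: 7 that were lower in treated cells at 7 h, UTP25, which did not pass, and NOL8, which was higher and lost its call with the total. Among the 7 lower genes, FBL (-0.07) and PES1 (-0.03) lost the call with the median of all genes as centre. NOP53, which was higher, has neither motif in the stretch. Of the 16 genes with an E-box near the start site, 11 were lower at 7 h, 1 was higher and 4 did not pass. Of the 56 matched genes, 33 were lower, 11 higher and 12 did not pass. The E-box near the start site was thus in 33.3% of the lower genes, 9.09% of the higher ones and 33.3% of those that did not pass. A link between the E-box and the direction at 7 h was not tested. The genes shown were chosen after their values were seen, and NOP2, NOL6, NOP14 and UTP25 lie outside the rule for named genes.
POLR1G, chr19:45406584-45406693, plus strand: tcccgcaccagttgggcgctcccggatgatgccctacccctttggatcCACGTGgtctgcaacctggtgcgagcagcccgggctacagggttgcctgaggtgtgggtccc
FBL, chr19:39846330-39846439, minus strand: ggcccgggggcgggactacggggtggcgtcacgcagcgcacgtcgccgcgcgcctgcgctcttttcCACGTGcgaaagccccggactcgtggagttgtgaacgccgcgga
NOP2, chr12:6568242-6568351, minus strand: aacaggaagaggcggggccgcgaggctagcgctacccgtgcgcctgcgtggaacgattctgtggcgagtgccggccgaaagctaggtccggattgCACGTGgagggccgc
NOL6, chr9:33473875-33473984, minus strand: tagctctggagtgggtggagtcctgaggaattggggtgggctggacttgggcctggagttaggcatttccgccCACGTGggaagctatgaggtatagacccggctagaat
PES1, chr22:30591861-30591970, minus strand: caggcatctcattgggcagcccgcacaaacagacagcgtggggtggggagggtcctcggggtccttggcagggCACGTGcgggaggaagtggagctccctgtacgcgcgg
NOP14, chr4:2963357-2963466, minus strand: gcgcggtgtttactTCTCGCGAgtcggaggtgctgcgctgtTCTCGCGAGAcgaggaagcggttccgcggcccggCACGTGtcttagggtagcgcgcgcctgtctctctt
LTV1, chr6:143843278-143843387, plus strand: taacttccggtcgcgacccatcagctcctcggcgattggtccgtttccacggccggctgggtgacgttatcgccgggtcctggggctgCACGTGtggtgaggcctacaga
UTP25, chr1:209827912-209828021, plus strand: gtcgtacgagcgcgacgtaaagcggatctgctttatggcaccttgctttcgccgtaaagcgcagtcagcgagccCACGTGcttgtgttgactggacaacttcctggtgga
NOL8, chr9:92325301-92325410, minus strand: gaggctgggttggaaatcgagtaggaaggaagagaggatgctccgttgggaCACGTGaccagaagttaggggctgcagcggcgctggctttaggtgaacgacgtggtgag
NOP53, chr19:47745486-47745595, plus strand: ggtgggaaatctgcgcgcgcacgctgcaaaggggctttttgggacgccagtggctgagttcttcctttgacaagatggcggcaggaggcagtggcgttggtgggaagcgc

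NOP2, an RNA methyltransferase of the large subunit, was at 72.8 and 74.1 CPM in treated cells and at 124 and 125 CPM in regular culture at 7 h (log2 fold change -0.76, SE 0.04; limma adjusted p = 2.74e-13). NOL6, a processome protein, was at 107 and 99.0 CPM in treated cells and at 186 and 177 CPM in regular culture at 7 h (-0.82, SE 0.04; limma adjusted p = 3.50e-13), and NOP14 was at 41.1 and 44.7 CPM in treated cells and at 74.4 and 73.0 CPM in regular culture (-0.78, SE 0.05; limma adjusted p = 6.56e-12). Over the 9 genes with the E-box in the stretch, the log2 fold change at 7 h ranged from -2.02 in POLR1G to 0.34 in NOL8, and a match in these letters does not say whether a factor was bound.

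The factors of the MYC network were described beside the E-box counts, as a list of 8, of which 6 were higher and 1 lower in treated cells at 7 h. Of all tested genes 40.5% were higher and 41.1% lower at that time. The lowest log2 fold change of the list at 7 h was -1.60, and the genes named below were all higher at 7 h. MYC was at 61.3 and 59.95 CPM in treated cells against 165 and 172 CPM in regular culture at 1 h. MYC at 7 h stood at 139 and 135 CPM in treated cells against 31.4 and 28.7 CPM in regular culture. It was below regular culture at 1 h and above it at 7 h, without overlap, and between the times in regular culture it was lower at 7 h, where most ribosome biogenesis genes were higher. Its log2 fold changes were -1.48 (SE 0.04; limma adjusted p = 1.01e-15) at 1 h, 2.19 (SE 0.04; limma adjusted p = 2.95e-19) at 7 h, and -2.49 (SE 0.04) between the times in regular culture. MXD1, which takes the place of MYC beside MAX and represses, was at 64.1 and 60.7 CPM in treated cells against 11.2 and 10.6 CPM in regular culture at 1 h. MXD1 at 7 h stood at 189 and 197 CPM in treated cells against 5.28 and 5.54 CPM in regular culture, and its log2 fold changes were 2.51 (SE 0.06) at 1 h and 5.15 (SE 0.06) at 7 h. MXI1, of the same family, was higher at 7 h (1.47, SE 0.05). Whether these factors have a part in the changes of the 65 genes was not tested.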

How the data were processed

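RNA was sequenced in 8 libraries (SMART-Seq mRNA HT and Nextera XT kits, which do not mark strand). The submitters' processing notes name HISAT2, GRCh38 and edgeR. Versions, counting tool, annotation and filter were not given in the sources used here. Values deposited by the authors are log2 CPM with a small prior. The prior was 0.0522 CPM (2 reads at the mean library size), and without it 100% of values were whole reads to within 0.1. Levels are CPM without the prior. The library sizes behind them were 0.838 and 0.846 times the reads of listed genes in treated cells at 7 h and 1.04 to 1.09 times elsewhere, so a scaling was already applied. Column headings name the group only, and 0 columns were left unassigned.

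Genes with at least 1 CPM in 2 libraries were kept (13028). Their log2 values entered a limma model (version 3.58.1, R 4.3.3) of 1 mean per group with an intensity trend (4 residual and 14.5 prior degrees of freedom). The threshold was an adjusted p of 0.05 (Benjamini-Hochberg, over all tested genes). The procedure was tested on simulated data. The members, lists and rules were chosen with earlier results of these data known, and the comparison of treated cells at 7 h with 1 h was added after the data were seen. Named genes are the polymerase, initiation, snoRNP, PeBoW and abundant nucleolar genes, the largest rise and fall at 7 h in each other class, and the 4 largest changes in each direction at 1 h and between the times; other members are named where a class is listed in full or where stated, after their values were seen. Identifiers of 12970 genes matched RefSeq, and shared exon bases come from GENCODE release 29.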

Additional observations from a re-analysis of the deposited data

Results flagged for a closer look

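For 25 of the 33 named genes the effect of the treatment differed between the times, by limma's test of the difference itself (log2 fold change at 7 h minus that at 1 h, adjusted over all tested genes, of which 73.7% passed). Some of the 33 were named for the size of this difference, so their number is a description; over all 65 members 46 passed (70.8%), which is near the share of all tested genes. The difference was negative for 18: POLR1G (-1.40), POLR1A (-1.29), POLR1B (-1.18), RRP1B (-1.07), RRS1 (-0.99), NOP14-AS1 (-0.96), UBTF (-0.93), LTV1 (-0.91), NOL11 (-0.80), POLR1C (-0.79), POLR1F (-0.74), DKC1 (-0.60), GNL3 (-0.57), NOL4L (-0.51), NOP56 (-0.45), NCL (-0.42), BOP1 (-0.25) and WDR12 (-0.21). Of these, WDR12 did not pass without any 1 of 5 of the libraries or with the median of all genes as centre. The difference was positive for 7: UTP3 (1.19), NOP53 (1.15), NOP58 (1.08), UTP11 (0.85), RRP12 (0.63), RRP7BP (0.59) and NPM1 (0.34). Scaled to the total of the listed genes, RRP7BP and NPM1 no longer passed. The libraries of both times differ in regular culture as well as in treated cells, and the part of each in the difference can be read from the levels given above.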

How the results depend on the processing

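The 33 named genes were recomputed over 1679 combinations of comparison and setting, of which 1560 kept their direction and their side of the threshold, 39 lost the call, 27 gained it and 53 changed sign, 6 of these for a value that had been called. Scaled to the total of the listed genes, 14 members were higher and 17 lower at 1 h, 8 were higher at 7 h, 7 were higher for the difference between the times, and 15 were higher and 39 lower in treated cells at 7 h against 1 h. With a change above 1.5-fold required, 0 were higher and 0 lower at 1 h, 4 higher and 20 lower at 7 h, 4 higher and 14 lower for the difference, 5 higher and 0 lower in regular culture at 7 h against 1 h, and 8 higher and 3 lower in treated cells at 7 h against 1 h. Shares of all tested genes at this threshold were not counted, so these numbers have no background beside them. Leaving out 1 library at a time gave 6 to 7 higher and 17 to 25 lower at 1 h, 13 to 16 higher and 36 to 38 lower at 7 h, 12 to 13 higher and 32 to 35 lower for the difference, 49 to 52 higher and 2 to 3 lower in regular culture, and 32 to 35 higher and 18 to 20 lower in treated cells; the lone library left in a group is assumed to vary like the others. No other alternative moved these counts by over 1.5 times. No paired analysis was possible because the columns carry no replicate numbers.

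Values that changed sign were mostly close to 0. At 1 h, with the total, they were POLR1E 0.052, FBL 0.014, NPM1 0.020, BOP1 0.033, PES1 0.053 and NOP53 0.068. With quantile normalization they were POLR1E 0.027, BOP1 0.021, PES1 0.072 and NOP53 0.058. NOP53 was at 0.012 with the median as centre and at 0.0023 with voom weights. At 7 h, with the total, POLR1D was at -0.028, NOP10 at -0.25, NPM1 at -0.022, NOB1 at -0.075 and RRP12 at -0.23, and with quantile normalization NPM1 was at -0.089. For the difference, with the total, POLR1D was at -0.25, NOP10 at -0.35, NPM1 at -0.042, NOB1 at -0.36 and NOL8 at -0.35, and with quantile normalization NOP10 was at -0.012, NPM1 at -0.069, NOB1 at -0.038 and NOL8 at -0.030. In regular culture POLR1C was at 0.0011 with the total and at 0.030 with quantile normalization or the median as centre. Over the libraries left out in turn, the ranges at 1 h were -0.0054 to 0.090 for POLR1A, -0.041 to 0.0074 for POLR1E, -0.014 to 0.076 for NOP10, -0.093 to 0.022 for BOP1, -0.068 to 0.038 for PES1, -0.099 to 0.13 for WDR12 and -0.036 to 0.036 for NOP53. At 7 h they were -0.42 to 1.86 for RRN3 and -0.015 to 0.15 for NOP10. For the difference they were -1.65 to 0.62 for RRN3, -0.046 to 0.12 for NOP10, -0.0053 to 0.046 for NOB1 and -0.0056 to 0.086 for NOL8. In regular culture they were -0.082 to 0.057 for POLR1C and -0.76 to 1.52 for RRN3. The cause was not tested. The members with the fewest reads per library were RRN3 (20 to 161), POLR1G (82 to 644) and NOP14-AS1 (101 to 328).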
